A study of Mus musculus with 18 samples.

Results

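The late cornified envelope and loricrin program was followed in mouse skin RNA through 37 of the 55401 genes in the deposited skin count table. The members are the 21 late cornified envelope genes, which are all rows whose symbol is Lce followed by a digit (14 Lce1 genes, 6 Lce3 genes and Lce6a), and 16 listed genes of cornified cells: Lor, Ivl, Crct1, Kprp, Tgm1, Tgm3, Tgm5, Casp14, Asprv1, Cdsn, Cnfn, Sbsn, Dmkn, Krtdap, Calml3 and Cst6. The rule uses symbols and roles only. Skin came from 9 female wild-type mice, 3 to a group. AD mice, a model of atopic dermatitis, received 4 nmol calcipotriol, a vitamin D analogue, together with 50 µg ovalbumin over 28 days. La-Cer mice received both agents and an emollient containing linoleic acid-ceramide, and control mice were untreated. No group received the emollient or either agent alone, so calcipotriol and ovalbumin cannot be told apart, and strain, age and skin site were not stated.

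The cornified envelope is the protein shell that replaces the plasma membrane of a keratinocyte as it dies at the skin surface. Envoplakin, periplakin and involucrin are laid down first as a scaffold beneath the membrane, and transglutaminases cross-link them. Loricrin, which makes up most of the mass of the envelope, and then the small cysteine-rich Lce proteins are added from inside, so Ivl and Tgm1 are read as early genes and Lor and Lce as late genes. In human skin, LCE1 and LCE2 genes belong to normal epidermis, while LCE3 genes are induced by injury and in psoriasis.

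All 21 Lce genes lie with Lor, Ivl, Kprp and Crct1 on chromosome 3 (GRCm38, from Lor at 92080271 to Lce1m at 93019060), and the other 12 members lie elsewhere. Sbsn, Dmkn and Krtdap are neighbours on chromosome 7. The 250 bases before the transcription start were read for 32 members from RefSeq (GRCm38.p6). They were searched on both strands for TGANTCA, a pattern wider than the AP-1 core TGA(C/G)TCA, and for TATAAA, the core of the TATA box. Of all 32851 promoters of that length, 6.75% hold TGANTCA and 12.4% hold TATAAA. The AP-1 core TGANTCA was found in Ivl, Lor, Krtdap, Dmkn and Sbsn and in none of the 20 Lce promoters read, and TATAAA in Ivl, Lor, Krtdap, Tgm3, Lce1d, Lce1m, Lce3e and Lce6a. A match is a description of these letters and not a bound site. The promoters printed here, 5′ to 3′ along the gene and with both motifs in capitals, are those of the early gene Ivl and the late gene Lor, which hold both, and those of Lce1g and Lce3e, the Lce1 and Lce3 genes with the highest fold change in AD skin, which lack TGANTCA. In Lce3e, and in Lce6a, which is not printed, the TATAAA letters lie on the other strand and read TTTATA. In both genes they lie toward the end of the 250 bases that is far from the transcription start.
Ivl (chr3:92573736-92573985, minus strand): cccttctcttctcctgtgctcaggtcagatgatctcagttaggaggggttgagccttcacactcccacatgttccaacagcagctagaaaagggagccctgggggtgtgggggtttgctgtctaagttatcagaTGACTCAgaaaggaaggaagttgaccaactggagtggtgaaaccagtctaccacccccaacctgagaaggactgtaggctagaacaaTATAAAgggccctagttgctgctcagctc
Lor (chr3:92083143-92083392, minus strand): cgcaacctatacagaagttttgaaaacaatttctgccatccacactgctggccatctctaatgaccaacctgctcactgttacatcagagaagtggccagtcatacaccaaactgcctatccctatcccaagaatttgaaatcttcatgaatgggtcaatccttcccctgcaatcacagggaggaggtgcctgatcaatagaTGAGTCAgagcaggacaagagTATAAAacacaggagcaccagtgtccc
Lce1g (chr3:92752339-92752588, minus strand): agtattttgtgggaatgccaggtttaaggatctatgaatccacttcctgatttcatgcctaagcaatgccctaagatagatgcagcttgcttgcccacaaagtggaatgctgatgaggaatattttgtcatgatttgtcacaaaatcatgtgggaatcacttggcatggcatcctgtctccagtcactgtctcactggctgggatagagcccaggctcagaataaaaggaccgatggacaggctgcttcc
Lce3e (chr3:92966811-92967060, plus strand): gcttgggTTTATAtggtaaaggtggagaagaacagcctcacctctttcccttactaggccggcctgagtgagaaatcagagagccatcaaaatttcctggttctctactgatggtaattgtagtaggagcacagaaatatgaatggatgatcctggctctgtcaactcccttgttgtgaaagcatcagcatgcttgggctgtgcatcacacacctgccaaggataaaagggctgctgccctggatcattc

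The 9 skin libraries held 13472283 to 18647521 counts. Levels are TMM-scaled CPM, the counts of a gene relative to the library's total, and all 37 members passed the filter on low counts. For 31 of them all 3 libraries of every group stood above its cutoff of 0.56 CPM. Lce3a, Lce3b, Lce3e and Lce3f did so only in AD, Lce1a2 in AD and La-Cer, and Lce3d in control and AD. The filter takes any 3 libraries, so Lce3a also passed it without AD, through controls 1 and 2 and La-Cer 1 and 3. Lce3b, Lce3e and Lce3f needed AD libraries to pass. Differences were tested with edgeR's quasi-likelihood test, and a gene was called at a Benjamini-Hochberg adjusted p under 0.05 over the 16956 genes tested. Markers of epidermis were present throughout: the 18 genes of an epidermal list summed to 14226 to 40205 CPM, with none at 0 in any library.

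Levels are compared between genes per kilobase of exon. Krtdap, a small secreted protein of differentiating keratinocytes, had the highest mean level over the 9 libraries at 1473 CPM per kb, followed by Lor at 742, Dmkn (dermokine) at 409 and Asprv1, the protease that processes profilaggrin, at 392. The highest Lce genes were Lce1a1 at 373, Lce1c at 233 and Lce1m at 173 CPM per kb. Lce3c led the Lce3 genes at 18.4, and Lce3e was the lowest member at 1.70. This is an order of means, and libraries of one group differed by several fold for most members, so neighbours in it were not told apart.

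**Figure D1:**
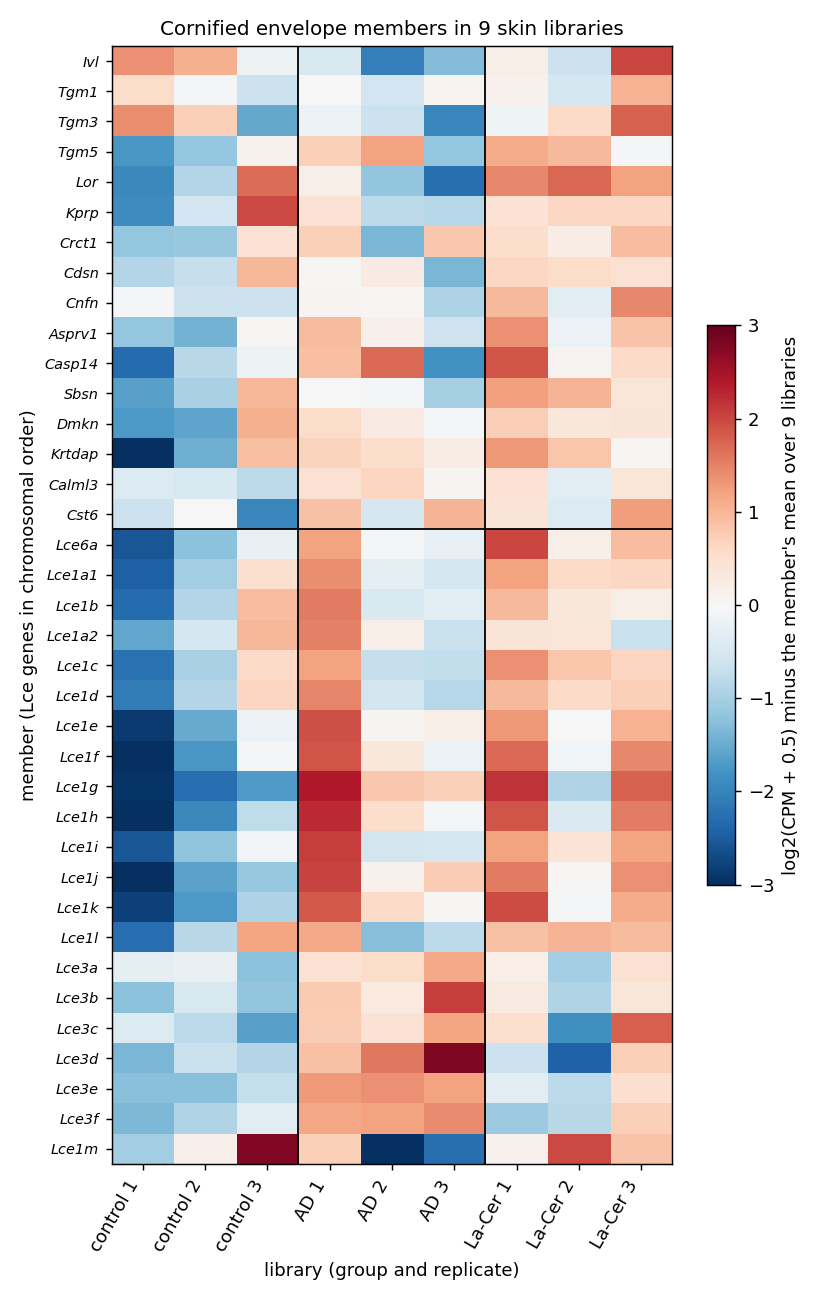
Level of each of the 37 members in the 9 skin libraries, as log2(CPM + 0.5) less the member's mean over the libraries; the colour scale ends at 3 in either direction, and black lines separate the groups and the 16 listed members from the Lce genes. Most Lce1 genes are lowest in control 1, the Lce3 genes are high in the 3 AD libraries, and Ivl is low in AD. Of the Lce3 genes, Lce3b, Lce3e and Lce3f passed the filter only through AD.

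The control libraries did not form a tight group for these genes. Control 3 was the highest control for 27 of the 37 members and the lowest for 7, namely Ivl, Tgm1, Tgm3, Calml3, Cst6, Lce3a and Lce3c. It stood over 2-fold above the mean of the other 2 controls for 26 members and under 0.5-fold for 6, a tally without Lce3e, which had no count in the other 2. The same library held 648 CPM of 21 hair follicle genes, against 29515 and 12652 in controls 1 and 2, and 14545 CPM of the 6 suprabasal keratins, against 1082 and 2342. Over all libraries the hair follicle sum ran from 648 to 29515 CPM in control, 404.6 to 11725 in AD and 2886 to 30660 in La-Cer, with no gene of the list at 0. The suprabasal keratin sum ran from 1082 to 14545, 2464 to 9141 and 8797 to 15148 CPM, and a skeletal muscle list of 12 genes ran from 17813 to 62339, 11663 to 46875 and 3325 to 22113. Genes of other cell lists were also called in AD against control, where 3.42% of all tested genes were called higher and 3.44% lower. Called higher were 4 of 11 tested sebaceous gland genes, 3 of 5 neutrophil genes and 4 of 7 mast cell genes. So were 3 of 7 T and innate lymphoid genes and 1 of 8 fibroblast genes (Lum). Of 8 adipocyte genes 1 (Lep) was called lower. The T and innate lymphoid sum overlapped, at 197, 264 and 467 CPM in control and 175, 328 and 399 in AD. No melanocyte gene was called, with a list median of -2.08 on the log2 scale and all genes overlapping between groups. The neutrophil sum, which holds S100a8 and S100a9 that stressed keratinocytes also make, was 9.02 to 16.6 CPM in control, 42.6 to 803 in AD and 7.72 to 34.0 in La-Cer, and like the Lce3 sum it was highest in AD 3. The sebaceous sum was 1722 to 2435, 4154 to 11263 and 1774 to 10164 CPM. The part of this tissue content in the member values was not tested, and in bulk skin fewer cells of a type and less RNA per cell cannot be told apart.

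**Figure D2:**
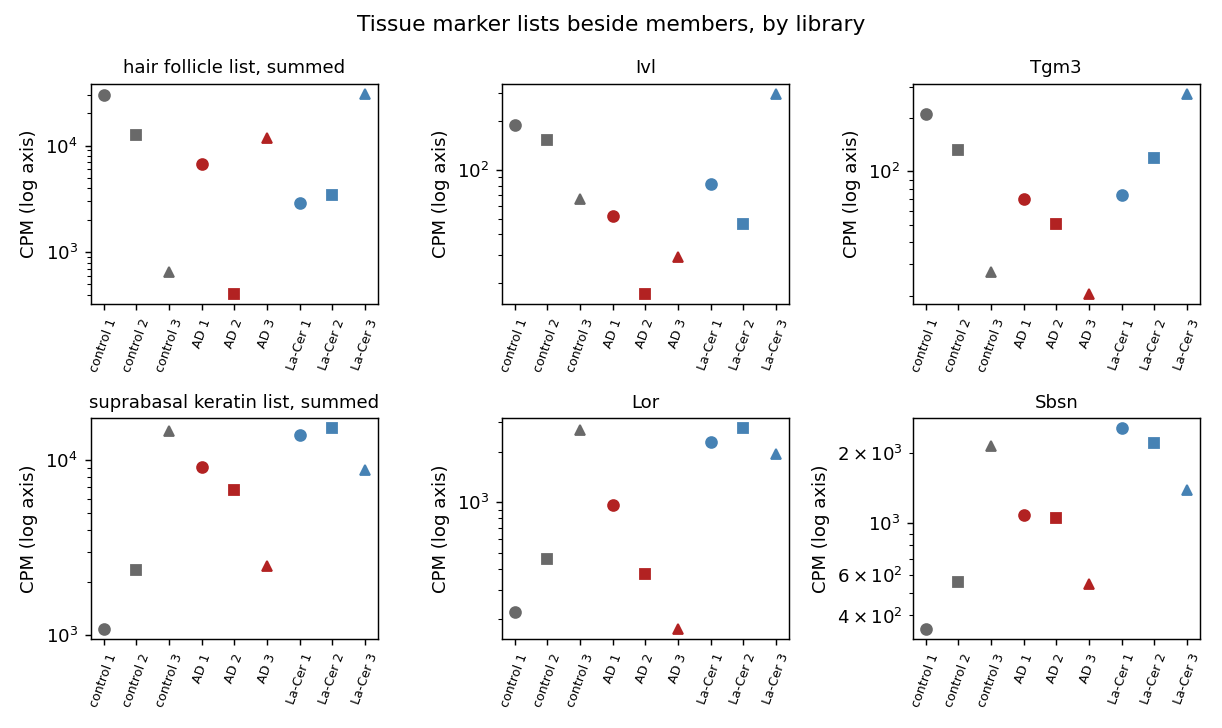
Summed CPM of 21 hair follicle genes and of 6 suprabasal keratins in each skin library, beside the CPM of 4 members, all on log axes. Ivl and Tgm3 are highest in La-Cer 3, the library with the highest hair follicle sum, and Lor is highest in La-Cer 2, the library with the highest suprabasal keratin sum.

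The first comparison asks what calcipotriol and ovalbumin changed in this program. In AD skin 4 of the 37 members rose against control and none fell, and all 4 are Lce genes: Lce1g, Lce1j, Lce1k and Lce3e. Over all tested genes 3.42% were called higher (580) and 3.44% lower (583), and with scaling to the epidermal list 106 and 25 genes were. Lce3e entered the test through its AD libraries alone, where it is high, so its direction is no support. None of the 16 listed genes passed the test in either direction.

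Lce1g (ENSMUSG00000027919, chromosome 3, 92750148 to 92752338) had 1.45, 2.59 and 4.12 CPM in the control libraries and 78.7, 25.9 and 24.3 in AD. Every AD library stood more than 5-fold above the highest control. Its mean rose from 2.72 ± 1.34 to 43.0 ± 31.0 CPM (SD, n = 3), a log2 fold change of 3.98 ± 0.83 with adjusted p = 0.0413 in edgeR. Lce1j had 0.794, 3.33 and 4.73 CPM in control and 46.2, 12.2 and 19.2 in AD, and rose with a log2 fold change of 3.14 ± 0.73 (adjusted p = 0.0425 in edgeR). Lce1k had 1.07, 2.83 and 5.29 CPM in the controls, 38.8, 15.9 and 10.7 in AD, and rose with a log2 fold change of 2.83 ± 0.73 (adjusted p = 0.048 in edgeR). In both genes AD 1 was the highest of the control and AD libraries, and the groups did not overlap.

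Lce3e (ENSMUSG00000074433, chromosome 3, 92967061 to 92968281) had no count in 2 control libraries and 4 counts in control 3, against 39, 35 and 31 counts in AD. These are 0, 0 and 0.223 CPM in control and 2.39, 2.59 and 2.24 in AD, and the AD libraries lay closer to each other than those of Lce1g, Lce1j or Lce1k did. The gene rose with a log2 fold change of 4.91 ± 1.14 (adjusted p = 0.0421 in edgeR). Lce3b had 0.0934, 0.493 and 0.111 CPM in control and 1.90, 1.19 and 5.35 in AD, a log2 fold change of 3.59 ± 0.96 that missed the threshold at adjusted p = 0.0502 in edgeR. The other Lce3 genes stood at log2 1.80 (Lce3c), 2.02 (Lce3a), 3.24 (Lce3f) and 3.34 (Lce3d), with adjusted p from 0.0657 to 0.175. Lce3b, Lce3e and Lce3f passed the filter on low counts only through AD, where they are high, so that they stand above 0 is no support. Low counts stand behind these values: the control libraries held 4.51 to 7.21 CPM over all 6 Lce3 genes together, against 27.4, 28.2 and 54.9 in AD 1, 2 and 3.

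Within the Lce1 family the fold changes were grouped along the cluster, a grouping made after the values were seen and therefore not tested. The consecutive genes Lce1e, Lce1f, Lce1g, Lce1h, Lce1i, Lce1j and Lce1k (92707401 to 92807891) stood at log2 1.90 to 3.98 in AD against control. They were also above 0 with scaling to the epidermal list and with a trend over gene length removed. Of these 7, 5 were higher without overlap between groups, which 16.3% of all tested genes were. Their summed level was 15.2, 44.0 and 112 CPM in the control libraries and 592, 171 and 152 in AD, so each AD library lay above each control. The block was drawn from these same values, so neither the signs, that count nor the summed levels are support. The 5 genes just before the block, from Lce1a1 to Lce1d (92646535 to 92687210), stood at 0.68 to 1.01, and none of them had groups without overlap. Lce1a1, the most abundant Lce gene, had 37.2, 99.2 and 285 CPM in control and 539.5, 166 and 142 in AD (log2 fold change of 1.01 ± 0.71, adjusted p = 0.371 in edgeR). This value was 0.13 without AD 1, 2.10 without control 3 and 0.23 with the length trend removed. Lce1c had 27.2, 66.4 and 192 CPM in the controls and 300.4, 79.8 and 78.3 in AD (log2 fold change of 0.68 ± 0.71, adjusted p = 0.555). In both, control 3 lay above AD 2 and AD 3, and AD 1 was the highest AD library in all 14 Lce1 genes. Lce1l, beyond Kprp, stood at 0.08 ± 0.82, and Lce6a, between Ivl and Lce1a1, at 1.55 ± 0.67.

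Lce1m (chromosome 3, 93017810 to 93019060), which lies apart from the other Lce1 genes at the end of the cluster beyond Crct1, was the one Lce gene below 0. Its levels were 40.9, 95.2 and 588 CPM in control and 139.7, 8.15 and 17.3 in AD, a log2 fold change of -2.13 ± 1.17 with adjusted p = 0.253 in edgeR. The groups overlapped, since AD 1 lay above 2 of the 3 controls. Without control 3 its value was -0.26, and without AD 1 it was -4.26.

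**Figure D3:**
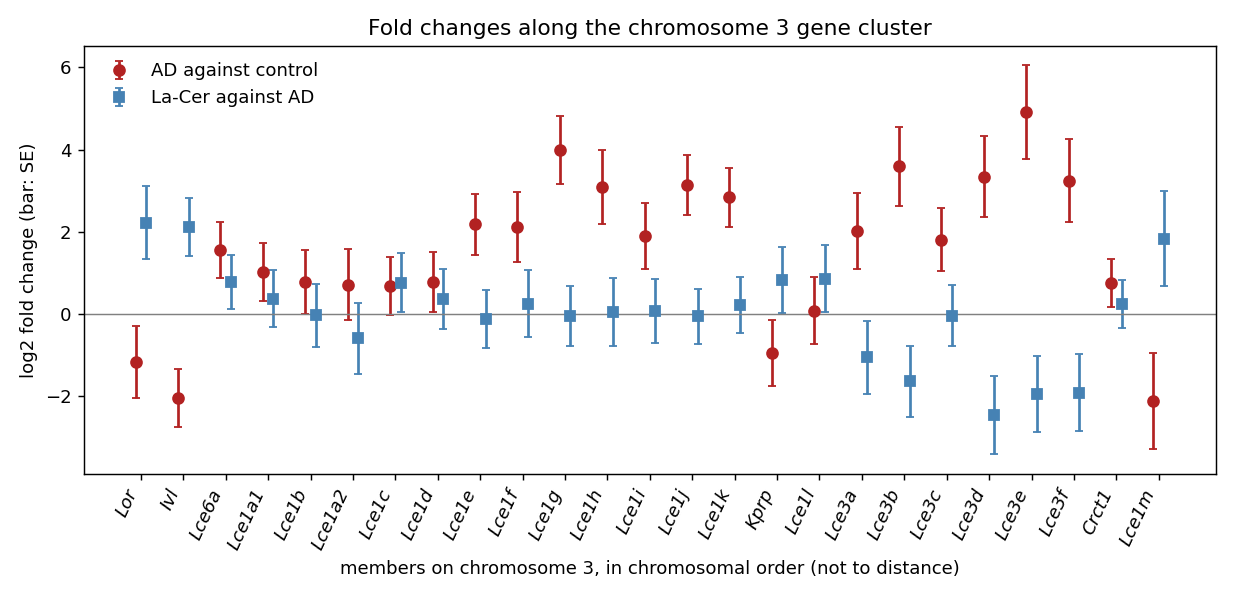
Log2 fold change with its standard error (edgeR) of the 25 members on chromosome 3, in chromosomal order and not to distance, for AD against control and for La-Cer against AD. Lce1e to Lce1k lie at 1.90 to 3.98 in the first comparison and near 0 in the second. The Lce3 genes, of which Lce3b, Lce3e and Lce3f passed the filter only through AD, lie above 0 in the first and below 0 in the second.

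Lor and Ivl, the main late and early structural genes of the envelope, did not pass. Lor had 220.0, 456 and 2706 CPM in control and 956, 371 and 175 in AD, and control 3 exceeded all AD libraries while control 1 lay below 2 of them (log2 fold change of -1.17 ± 0.87, adjusted p = 0.4 in edgeR). Its direction rested on that library, with log2 0.62 without control 3. Ivl had 189, 152 and 65.7 CPM in control and 52.1, 17.1 and 29.2 in AD. All 3 AD libraries lay below all 3 controls, yet the log2 fold change of -2.05 ± 0.71 did not pass (adjusted p = 0.0955 in edgeR). It was the one member lower in AD without overlap, which 18.2% of all tested genes were. Tgm1, the membrane-bound transglutaminase of the envelope, had 129, 84.5 and 56.2 CPM in the controls and 87.5, 58.5 and 93.3 in AD, a log2 fold change of -0.17 ± 0.43 with adjusted p = 0.82 in edgeR. All its AD libraries fell within the control range.

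The other listed genes gave no call, and their values here are log2 fold changes with standard errors. Tgm3, a transglutaminase of epidermis and hair follicle, stood at -1.38 ± 0.74 and Tgm5 at 1.29 ± 0.66. Calml3, a calmodulin-like protein of keratinocytes, was higher without overlap in AD, with 198 ± 27.8 against 386 ± 74.9 CPM (log2 fold change of 0.96 ± 0.32, adjusted p = 0.0866 in edgeR). The secreted proteins Krtdap, Dmkn and Sbsn stood at 0.84 ± 0.79, 0.42 ± 0.65 and -0.19 ± 0.62. The proteases Casp14 and Asprv1, which act on filaggrin and profilaggrin, stood at 1.71 ± 0.84 and 0.99 ± 0.55, and the protease inhibitor Cst6 at 1.27 ± 0.61. Cdsn, the adhesion protein of corneodesmosomes, stood at -0.29 ± 0.54, Cnfn (cornifelin) at 0.22 ± 0.45, Kprp at -0.97 ± 0.80 and Crct1 at 0.75 ± 0.59. Over all 37 members 12 were higher without overlap, where 16.3% of all tested genes were. The 12 include the 6 Lce3 genes, of which Lce3b, Lce3e and Lce3f passed the filter only through AD, so nothing is read from that count. With a trend over gene length removed, 7 of the 37 changed sign (Cnfn, Crct1, Lce1a2, Lce1b, Lce1c, Lce1d and Lce1l), and with scaling to the epidermal list Sbsn and Cdsn did.

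The 4 calls lay between adjusted p = 0.0413 and 0.048 in edgeR. No member was called when control 1, control 2, any 1 AD library or La-Cer 3 was left out, settings in which 0 to 2 genes of the whole table were called, and 7 were without control 3, with Krtdap, Dmkn and Lce1e added to the 4. Without control 3, edgeR called 1.56% of 17295 genes higher (270). No member and no other gene was called with a trend over gene length removed, where Lce1g stood at log2 3.28 and Lce3e at 4.16, while DESeq2 called 11 members higher and Ivl lower. DESeq2 called more of the whole table too, 7.71% of 19466 genes higher (1501) and 6.7% lower (1305).

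Because Lce genes are near copies of each other, the share of reads that belongs to each is uncertain. Of the 50-base stretches in their GENCODE transcripts, 9.12% to 27.1% also occurred in another gene for the Lce1 genes other than Lce1m, and 12.1% to 49.3% for the Lce3 genes. Lce3e shared 41.4% with Lce3f, Lce1g shared 9.54% with Lce1j, and Lce1m and Lce6a shared none. Tgm1 shared 4.18% with the opposite-strand gene Gm49067, and Sbsn 6.96% with Tmem147os.

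**Figure D4:**
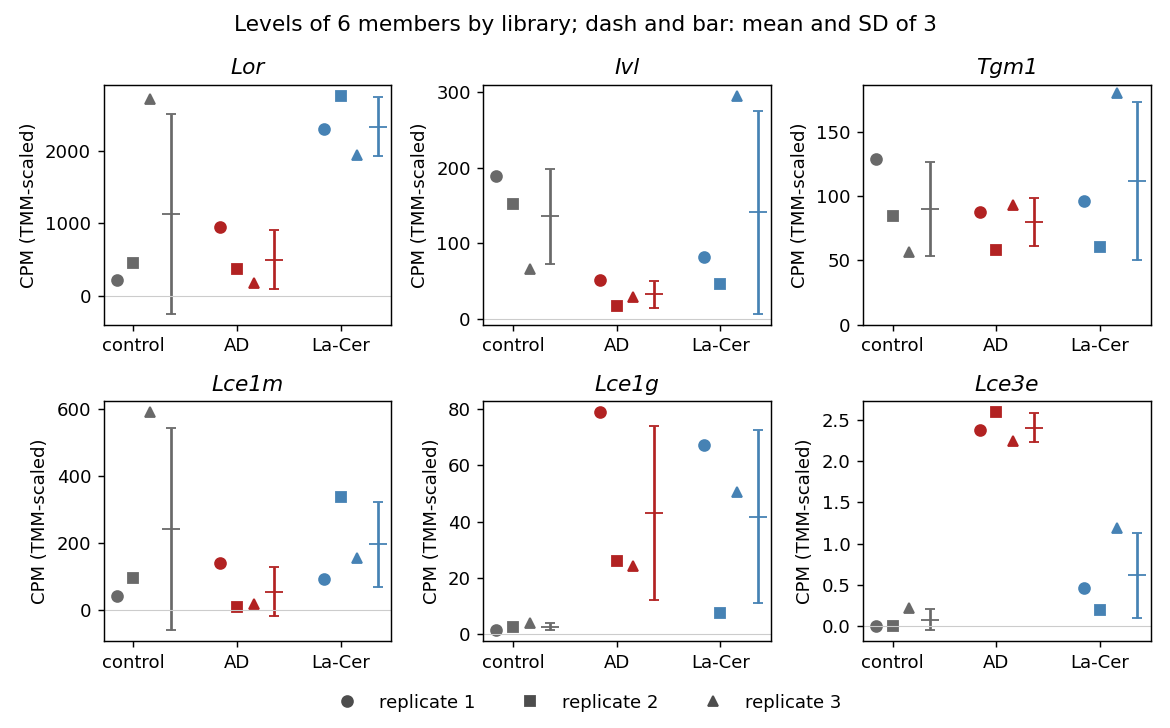
CPM of 6 members in each skin library, with the mean and SD of each group beside the points; bars that reach below 0 show SDs larger than the mean. Ivl lies lower and Lce1g and Lce3e higher in all AD libraries than in all controls, while Lor, Tgm1 and Lce1m overlap.

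Genes that work with the members were counted from lists chosen by their roles. Over all tested genes 3.42% were called higher in AD than in control and 3.44% lower. No gene of the whole table was called with a replicate block or with the length trend removed, so the calls in these lists depend on the setting too. Of 9 tested early scaffold genes, Ivl and Tgm1 among them, 1 fell in AD skin: Evpl, which encodes envoplakin, from 296 ± 34.5 to 92.3 ± 34.1 CPM (log2 -1.68 ± 0.40, adjusted p = 0.0429 in edgeR), and its partner Ppl stood at -1.48 ± 0.46 without passing. The list median was -0.41. Of 25 tested genes of other envelope proteins 8 rose and Evpl fell, with a median of 0.92. They were the small proline-rich genes Sprr2a1, Sprr2b, Sprr2d, Sprr2e and Sprr2i, the fused S100 proteins Hrnr and Rptn, and the protease inhibitor Csta1. Sprr2 genes have near copies too, so the reads of each are uncertain. Rptn (repetin) rose from 13.6 ± 5.88 to 345 ± 192 CPM (log2 4.66 ± 0.76) and Hrnr (hornerin) from 18.6 ± 20.03 to 129 ± 22.7 (log2 2.80 ± 0.71). Of 19 tested genes of corneodesmosomes and desquamation 2 rose, the kallikrein proteases Klk8 and Klk13, at log2 2.91 ± 0.75 and log2 3.19 ± 0.67. None of the 6 suprabasal keratins passed in edgeR. Their smallest adjusted p was 0.0999 (Krt80), and their median was -1.15. No gene passed among 5 other transglutaminases, with a median of -1.65, or among the 18 of the epidermal list, with a median of -0.42.

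The regulators of late differentiation that passed were all lower. Of 27 tested, 4 were lower in AD and none higher, with a list median of -0.46, where 3.44% of all tested genes were called lower. Notch1, a receptor that drives keratinocytes out of the basal layer, fell from 218 ± 64.0 to 63.4 ± 15.4 CPM (log2 -1.78 ± 0.35, adjusted p = 0.0413 in edgeR). Grhl3, a transcription factor of barrier genes, fell by 1.51 ± 0.37 on the log2 scale, Jun, a subunit of AP-1, by 1.19 ± 0.27 and Vdr, the receptor that binds calcipotriol, by 1.37 ± 0.31.

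Early and late genes were then set against each other in each library. The late level, the mean log2 CPM of Lor and the 21 Lce genes, less the early level, that of Ivl and Tgm1, was -5.72, -4.11 and -2.21 in the control libraries. The AD libraries had -0.71, -1.02 and -1.61, and the La-Cer libraries -1.65, -2.02 and -2.99. On this mean, which weights each gene equally, all AD libraries lay above all controls. Group means were -4.01 ± 1.75 (control), -1.11 ± 0.46 (AD) and -2.22 ± 0.69 (La-Cer; SD, n = 3). In AD the late level was higher (4.48 ± 0.77 against 2.67 ± 1.07) and the early level lower (5.59 ± 0.55 against 6.68 ± 0.69) than in control. The lower early level is mostly that of Ivl, at a log2 fold change of -2.05, since Tgm1 stood at -0.17. These are averages over members chosen for their roles and carry no test. The late level includes Lce3b, Lce3e and Lce3f, which passed the filter only through AD, where they are high. With Lor as the only late gene the difference between AD and control was 0.38 in place of 2.90. Both values hold the same lower early level, so they differ through the Lce genes. With the summed Lce level as the late level the difference was 2.01. That sum was 163, 404 and 1484 CPM in control and 2065, 573 and 562 in AD, so control 3 lay above AD 2 and AD 3. Less the early level, control 3 still lay above these AD libraries.

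The ratio of Lor counts to Ivl counts showed the spread in control directly. It was 1.16, 3.00 and 41.2 in control skin, 18.4, 21.7 and 5.98 for the AD mice and 27.9, 59.2 and 6.60 for the La-Cer mice. Among the controls only control 3 exceeded every AD library, and La-Cer 1 and La-Cer 2 did too. The ratio of Lce1 to Lce3 counts was 21.3, 53.7 and 324 in control skin, 72.3, 18.5 and 8.85 for AD and 108, 449.5 and 32.9 for La-Cer mice, and its groups overlapped as well.

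**Figure D5:**
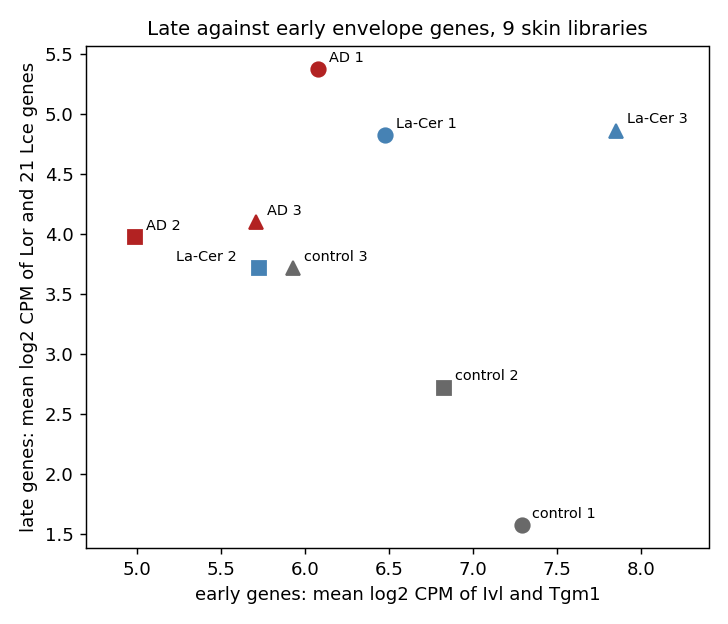
Mean log2 CPM of the late genes (Lor and 21 Lce) against that of the early genes (Ivl and Tgm1), 1 point per skin library. The late genes include Lce3b, Lce3e and Lce3f, which passed the filter only through AD. The 3 controls run from high early and low late levels to nearer the others, the 3 AD libraries lie at early levels of 4.99 to 6.08, a range that also holds control 3 at 5.93 and La-Cer 2 at 5.73, and La-Cer 3 has the highest early level at 7.85.

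The next comparison sets the emollient group against AD. No member passed, and calls covered 0% of all tested genes in edgeR, although 3198 genes and 5 members (Ivl, Lce3d, Lor, Cnfn and Tgm3) had an unadjusted p under 0.05. DESeq2 called 1 member, Ivl, as higher, where it called 2.31% of 18304 genes higher (422) and 450 lower. Lor stood higher in all La-Cer libraries than in all AD libraries. Lce3d, Lce3e and Lce3f stood lower without overlap, and Lce3e and Lce3f passed the filter only through AD. The Lce1 genes gave a median of 0.14, with 9 of 14 above 0.

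Lor had 2297, 2756 and 1947 CPM in La-Cer, against 956, 371 and 175 in AD, and its lowest La-Cer library lay above its highest AD library. The log2 fold change of 2.22 ± 0.90 did not pass in edgeR (adjusted p = 0.232). Ivl had 82.4, 46.5 and 295 CPM in La-Cer, where La-Cer 3 stood far above the others and La-Cer 2 fell within the AD range (log2 fold change of 2.11 ± 0.71, adjusted p = 0.18 in edgeR). Without La-Cer 3, the library with the highest hair follicle sum, the Ivl value was 0.98. Tgm1 had 95.9, 60.2 and 180.2 CPM and overlapped AD (log2 fold change of 0.49 ± 0.44, adjusted p = 0.56 in edgeR).

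Lce3d was the Lce gene with the smallest p. It had 5.87, 9.93 and 23.7 CPM in AD and 1.71, 0.144 and 5.23 in La-Cer, so the highest La-Cer library lay just below the lowest AD library (log2 fold change of -2.48 ± 0.95, adjusted p = 0.212 in edgeR). Lce3e and Lce3f were also lower without overlap, at -1.96 ± 0.94 and -1.93 ± 0.94. Lce3e and Lce3f passed the filter only through AD, so their direction is no support. Lce3d also passed it through control. La-Cer 3 had the highest value of its group in each of the 6 Lce3 genes, and Lce3c, at -0.05, turned to 0.48 with the length trend removed. The summed Lce3 level was 15.3, 2.78 and 38.6 CPM in La-Cer. It therefore spanned more than 10-fold among 3 mice of one group.

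Tgm3 had 70.3, 50.8 and 20.4 CPM in AD and 73.7, 119 and 274 in La-Cer, higher without overlap (log2 fold change of 1.72 ± 0.74, adjusted p = 0.253 in edgeR). Cnfn had 200.4, 194 and 99.5 CPM in AD and 369.7, 151 and 512 in La-Cer, where La-Cer 2 overlapped (log2 fold change of 1.06 ± 0.46, adjusted p = 0.249 in edgeR). Sbsn and Cdsn were the remaining members higher without overlap, at 1.20 ± 0.63 and 0.76 ± 0.54. In all, 4 members were higher and 3 lower without overlap, where 13% and 9.48% of all tested genes were. From Lce1e to Lce1k the 7 genes stood at -0.13 to 0.24, with standard errors of 0.66 to 0.82, and their summed level was 453, 140.2 and 369 CPM in La-Cer. Scaling to the epidermal list moved the median of all genes from 0.02 to -0.51 in this comparison and turned 11 of the 37 members from above to below 0, among them Lce1a1, Krtdap and Dmkn. Beside Lor, the 6 suprabasal keratins had a median log2 fold change of 1.69 with none passing, and no gene of the other lists passed either.

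The third comparison, La-Cer against control, shares its control and La-Cer libraries with the others, so its values stand beside theirs and are no separate support. No member passed, and 0% of all tested genes did in edgeR, although 15 members and 968 genes in all had an unadjusted p under 0.05. The members' smallest adjusted p was 0.836 in edgeR. DESeq2 called 4 members as higher, Lce1g, Lce1h, Lce1j and Lce1k, where it called 0.288% of 17724 genes higher (51). Lce1m and Kprp stood below 0. Without overlap, 11 were higher and none lower, where 6.48% and 7.05% of all tested genes were.

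Lce1g had 67.0, 7.57 and 50.6 CPM in La-Cer, a log2 fold change of 3.94 ± 0.83 against control (adjusted p = 0.836 in edgeR). Lce1j had 33.7, 11.3 and 29.5 CPM (log2 fold change of 3.07 ± 0.73) and Lce1k 42.5, 10.1 and 23.3 (log2 fold change of 3.04 ± 0.73). Lce1h had 0.700, 2.03 and 5.29 CPM in control skin, 45.1, 13.6 and 8.96 with the agents alone and 35.6, 6.76 and 27.5 with the emollient added (log2 fold change of 3.12 ± 0.90 against control). In all 4 genes the lowest La-Cer library was La-Cer 2, and it still lay above the highest control. Lce6a had 3.69, 9.98 and 20.6 CPM in the controls and 98.0, 27.5 and 46.4 in La-Cer, beside 56.5, 23.5 and 20.5 in AD, and its La-Cer libraries lay above all controls (log2 fold change of 2.33 ± 0.69, adjusted p = 0.836 in edgeR). Over Lce1e to Lce1k the range was 1.96 to 3.94, beside 1.90 to 3.98 in AD against control. The Lce3 genes stood at 0.86 to 2.95, and each of them overlapped between La-Cer and control.

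Lce1a1 had 472, 306 and 316 CPM and Lce1c 339, 233 and 202 in La-Cer, and in both genes all La-Cer libraries lay above all controls without passing (log2 fold change of 1.38 ± 0.71 and 1.44 ± 0.72). Lce1m had 93.8, 338 and 155 CPM and overlapped both other groups. Ivl and Tgm1 stood at 0.06 ± 0.68 and 0.32 ± 0.43 against control, and both turned below 0 when scaled to the epidermal list, which moved the median of all genes from -0.05 to -0.49 here. Evpl had 351 ± 131 CPM in La-Cer, beside 92.3 ± 34.1 in AD and 296 ± 34.5 in control, with adjusted p = 0.141 against AD and 0.941 against control in edgeR. Rptn had 18.5 ± 13.3 CPM in La-Cer, beside 345 ± 192 in AD (log2 -4.22 ± 0.74 against AD, adjusted p = 0.141 in edgeR).

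Lung, which has no cornified layer, was scaled on its own and gives levels only. Lce1j, Lce1k, Lce1l and Lce3e had no count in any of the 9 lung libraries, and no Lce gene exceeded 0.265 CPM. Other members were detected, with median lung levels of 30.3 CPM for Dmkn, 9.0 for Sbsn, 5.56 for Calml3, 4.40 for Tgm1 and 2.81 for Lor.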

How the data were processed

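RNA was sequenced from skin and lung of 9 mice per tissue, with 1.5 µg of total RNA per library, per the labels' protocols. The authors' deposited tables hold raw read counts per Ensembl gene, per the file headers, and beside them the authors' FPKM values, which were not used. Tools named in the submitters' processing notes are cutadapt 1.9.1 and bcl2fastq 2.17.1.14, and the build is GRCm38. How reads were aligned and counted, and with which strand setting, is not given in the sources used here; overlapping genes and near copies may therefore share reads.

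Skin counts were tested with edgeR 4.0.16 (R 4.3.3): TMM scaling, filterByExpr with a minimum count of 10, and the robust quasi-likelihood test over 9 libraries, adjusted by the Benjamini-Hochberg method over 16956 genes. The fit was tried on simulated counts that held no outlying libraries and no shifts in tissue content. That trial therefore says nothing about its error rates in these data. Log2 levels used a prior count of 2. Alternatives were RLE factors, DESeq2 1.42.0, no filter, the 6 libraries compared, a replicate block, a lowess trend over exonic gene size removed (span 0.3), scaling to 18 epidermal genes, each library left out and, chosen after seeing the data, a fold threshold of 1.5. The members, lists and tests were chosen with earlier results of these data known. Values in every library are given for Lor, Ivl, Tgm1, the 3 most abundant Lce genes and the 5 members with the smallest p per comparison; lists give their called genes. P-values set the difference between groups of 3 mice against a spread estimated over all 9 libraries. Calls in AD against control therefore also depend on the La-Cer libraries. Promoters are from RefSeq and transcripts from GENCODE vM21.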

Additional observations from a re-analysis of the deposited data

Results flagged for a closer look

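Asprv1, the protease that processes profilaggrin in the epidermis, was higher in the lung libraries of AD mice than in the other lung libraries, which no comparison above uses. It had 98, 99 and 55 counts in AD lung, against 21, 21 and 17 in control lung and 24, 28 and 25 in La-Cer lung. In CPM relative to the library's total, without TMM scaling, these are 5.73, 6.22 and 3.23 in AD, 1.13, 1.20 and 1.02 in control and 1.25, 1.45 and 1.33 in La-Cer, so the lowest AD library lay above the highest of the others. It was noticed because it exceeded the control level in a tissue outside the main measurement, and the difference was not tested.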

How the results depend on the processing

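Against the 4 members called in AD against control, DESeq2 called 12 (with 1501 genes higher and 1305 lower over the whole table, against 580 and 583), the replicate block 0, removal of the length trend 0 and a fold threshold of 1.5 also 0, and leaving out single libraries gave 0 to 7, the 7 without control 3, where 270 and 265 genes were called. RLE factors, no filter, the 6 libraries compared and the epidermal scaling gave 3 to 5. These were not always the same members, since Lce1g was not called with no filter (adjusted p = 0.0722 in edgeR). DESeq2 called 1 member in La-Cer against AD (422 and 450 genes) and 4 in La-Cer against control (51 and 10), and edgeR called 0 there under each alternative. The difference in late minus early level changed from 2.90 to 0.38 with Lor alone in AD against control, and from -1.11 to 1.45 with Lor alone and -0.36 with summed Lce counts in La-Cer against AD.

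Signs changed for few of the members followed singly. In AD against control, leaving out single libraries gave -2.05 to 0.62 for Lor, -0.37 to 0.17 for Tgm1, and -0.28 to 1.76 for Lce1c, which stood at -0.10 with the length trend removed. In La-Cer against AD they gave -0.028 to 0.80 for Tgm1, and Lce1a1 stood at -0.18 with the epidermal scaling. In La-Cer against control, Ivl stood at -0.23 with the replicate block, -0.14 with the length trend removed and -0.42 with the epidermal scaling, and ranged from -1.08 to 0.48 with libraries left out. Tgm1 stood at -0.17 with the epidermal scaling and ranged from -0.21 to 0.67, and Lce1m stood at 0.11 with the replicate block and ranged from -0.96 to 1.58. The causes were not tested.

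Libraries that share a replicate number did not deviate together in a steady way (r from -0.73 to 0.26 over the 9 pairs). With 3 libraries per group this check cannot exclude that the numbers pair mice. The Lce3 genes rest on few counts, 0 to 120 per control library, which limits their precision.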
